A study of Mus musculus with 6 samples.

Results

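The genes described here are 177 genes whose values were higher after Lhx8 siRNA in the second of 2 gene lists deposited for a mouse 3T3-L1 experiment. They were selected on the siRNA and vehicle values themselves. A gene was taken when each group had at least 2 plain-number values and the log2 ratio of the mean with siRNA over the mean with vehicle, with a pseudocount of 0.1 added to each mean, was at least 0.2. Of the 602 genes of the list, 496 had enough values and are called measured below. Shares of them describe this list and not all genes expressed in the cells. Of the 496, 195 (39.3%) reached that ratio. From these the rule set aside 5 predicted gene models and 13 named genes, which left 177 members. A further 177 genes were lower by at least 0.2 and 124 lay between. The values were used as deposited. With the libraries scaled to a common median, 225 genes met the rule and 115 were lower, so that the higher genes made up 66.2% of both in place of 50.1%. The scaling used genes of this same list. It raised the values of each siRNA library and lowered those of each vehicle library, so a shift in this direction was built in. Both shares leave predicted gene models out of the lower genes too, which then number 176 as deposited. Because the contrast chose the members, their ratios are given as a description and none was tested.

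3T3-L1 is a fibroblast-derived mouse line whose cells can be turned into fat cells in culture and which stands in for the preadipocyte. Poly(A) RNA was sequenced from 6 libraries. In 3 of them, labelled LHX8 deficient, the cells had been transfected with Lhx8 siRNA, and in 3, labelled wild-type, the titles give vehicle. The study describes its controls in some places as transfection reagent alone and in others as non-silencing siRNA, and which of these the vehicle libraries received was not settled here. The labels give preadipocytes, while the study speaks of adipocytes, and they do not say that the libraries came from separate cultures. If the vehicle cells received no siRNA, loss of Lhx8 and the presence of any transfected siRNA cannot be told apart. Lhx8 had no entry in either list, so its level could not be checked. Leukocyte, endothelial and epithelial marker lists had 0 measured genes. Such markers thus had no usable entry in the second list, which does not show that these cells were absent. The marker counts that follow also cover only genes of that list. All 4 measured preadipocyte and fibroblast markers (Col3a1, Pdgfra, Twist2, Ly6a) were lower with siRNA, and the sum of the 3 with all values ran from 758 to 789 with siRNA and from 901 to 988 with vehicle. Of 7 measured adipocyte genes 6 were lower, and the sum of the 4 with all values ran from 1075 to 1191 against 1461 to 1615. No member belonged to either list, and the part of cell state in the members' values was not tested.

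LHX8 is a LIM homeobox transcription factor, a DNA-binding protein that works together with LIM-domain cofactors. Preadipocytes are flat cells with actin stress fibres that are anchored to the matrix through integrins, and they take these structures down as they round up and fill with lipid. Tension on actin fibres frees the coactivators MRTF and YAP, which act with the DNA-binding factors SRF and TEAD on genes for actin-binding and matricellular proteins.

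Differences were small. The median log2 ratio of the members was 0.30, a 1.23-fold higher mean, and 85 members lay under 0.3. Only 18 members reached 0.5. Every siRNA value lay above every vehicle value in 171 members (96.6%), beside 48.8% of all 496 genes, and the choice of members fixes much of this. The 48.8% counts this direction only. Of the 273 genes of the list with all 6 values, the groups were apart in this direction in 120 and in the other in 146. Groups without overlap were thus usual in the whole list and not particular to the members. Where a set of members below is said not to overlap, it is to be read against this. Whether the list itself was drawn up on the contrast of siRNA and vehicle was not settled here. The groups overlapped in Pdpk1, Aak1, Pde3a, Ralgapa1, Ddah1 and Fryl. How the values were scaled is not stated. They are called values below and are compared within a gene and not between genes. In what follows values are in the order of libraries 1, 2 and 3, and where a group has only 2 values the libraries are named, since the remaining cell held a date. Of the members, 78 had all 6 values, 69 had 5 and 30 had 4. Among the 78, the lowest value was in vehicle 1 in 44, in vehicle 2 in 23 and in vehicle 3 in 11, and the highest was in siRNA 2 in 38, in siRNA 3 in 31 and in siRNA 1 in 9. In the count list, the other deposited list, vehicle 3 held the highest of the 6 values in 201 of 232 genes (86.6%). None of those genes is a member. At the threshold, the last members inside were S1pr3 at 0.2002, Usp24 at 0.2011 and Fmn1 at 0.2012, and the first genes outside were Actn4 at 0.1999, Uggt1 at 0.1994 and Amotl2 at 0.1979.

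By what their proteins do, the members were placed in 14 role groups, assigned after the member list was known. The groups were of similar height, with medians between 0.25 for the ubiquitin system and 0.41 for the 10 genes whose role was not assigned.

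**Figure D1:**
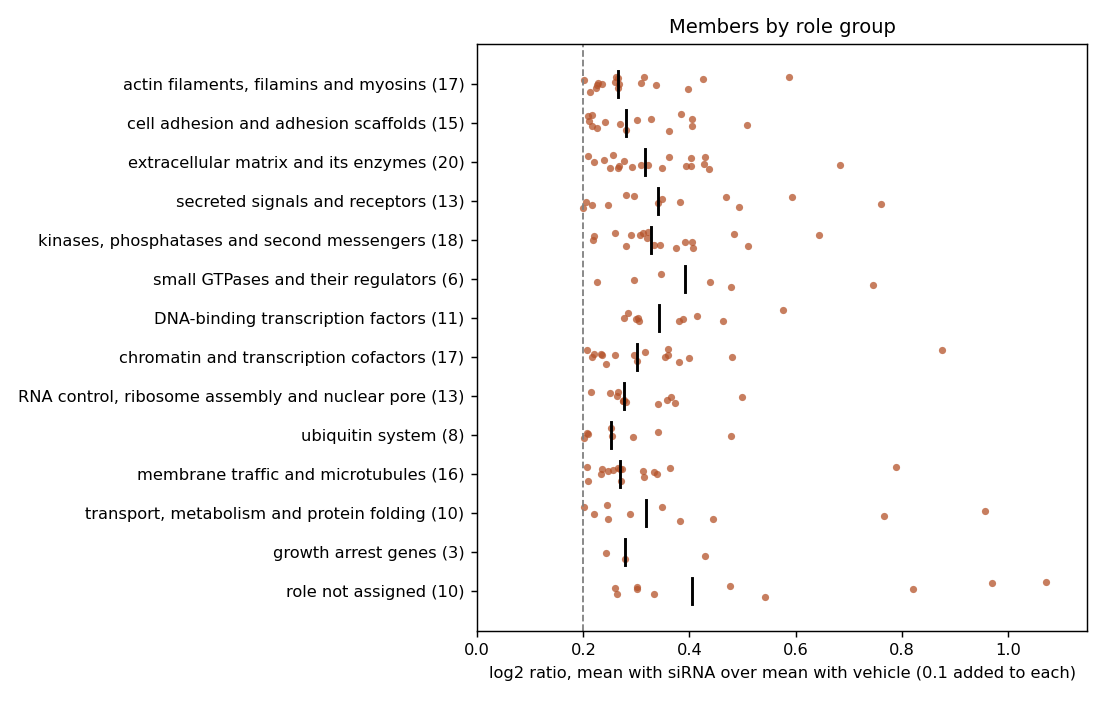
Log2 ratio of the mean with siRNA over the mean with vehicle for the members (points) in each of 14 role groups, with the number of members in parentheses, the group median as a black bar and the threshold of 0.2 as a dashed line. Zfp965 is not drawn and is left out of its group's bar, because its vehicle values are listed at 0. Most points lie between 0.2 and 0.5 in every group.

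Genes of the actin cytoskeleton formed a large group. Of all 496 measured genes 35.7% were members and 35.7% were lower, shares against which each list count is to be read. They are shares of the second deposited list and not of all expressed genes. These shares varied with the length of the coding sequence, as given below. Counts of lists with many long genes are to be read against that as well. Of 26 measured genes in a list of actin and contraction genes, 15 were members, 3 more were higher but set aside by name, 7 lay between and 1 was lower, and the median log2 ratio of all 26 was 0.23 beside 0.13 for all 496 genes. Neb encodes nebulin, the giant protein that lines thin filaments of striated muscle, and it had 0.64, 0.85 and 0.69 with siRNA against 0.35, 0.43 and 0.57 with vehicle, all siRNA values being above all vehicle values. Its log2 ratio was 0.59, but all its values were under 1, so that the ratio depends on the pseudocount. Of the other muscle genes on the marker list Hspb7 and Acta1 were higher while Capn6 was lower. Pdlim5, a PDZ and LIM domain protein that links kinases to actin fibres, had 96.8, 107 and 101 with siRNA against 78.2, 75 and 73.6 with vehicle (log2 ratio 0.42). Myh10, the heavy chain of nonmuscle myosin IIB, which pulls on actin fibres, had 84.7, 104 and 90.7 with siRNA against 61.5, 76.8 and 73.3 with vehicle (log2 ratio 0.40). Vehicle 1 was the lowest library for both Neb and Myh10. Myo10, a myosin that carries integrins into filopodia, had 116, 123 and 121 with siRNA against 99.6 and 93.3 in vehicle 2 and 3 (log2 ratio 0.32). The light chain Myl9, which regulates myosin in contractile cells, had 918, 940.0 and 913 with siRNA against 792, 752 and 759 with vehicle, a narrow spread in each group with a gap between them (log2 ratio 0.27).

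Filamins crosslink actin filaments into networks and tie them to membrane receptors. Flna had 909, 940.5 and 848 with siRNA against 684, 726 and 769 with vehicle (log2 ratio 0.31). Flnc had 88.2 and 87.2 in siRNA 1 and 3 against 70.0 and 75.9 in vehicle 1 and 2 (log2 ratio 0.27). Rflnb, a refilin that binds filamins and turns them toward bundling, was higher too, with 43.2, 45 and 44 with siRNA against 33.9 and 35.8 in vehicle 1 and 2 (log2 ratio 0.34). Further actin genes had log2 ratios from 0.20 to 0.27. Mical2 (0.27), an enzyme that oxidizes actin, Cnn1 (0.24), the smooth muscle calponin, Dstn (0.23), destrin, which severs filaments, Myo1d (0.26) and Myo9a (0.22), unconventional myosins, Fhl1 (0.26), a LIM-only protein, Mprip (0.21), which brings myosin phosphatase to actin, and Fmn1 (0.20), a formin that lengthens filaments, all had groups that did not overlap. Members named here outside the rule for named genes were chosen for their family after their values were seen.

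Adhesion proteins tie the actin network to the matrix and to other cells. In a list of adhesion genes 6 of 8 measured genes were members and 2 were lower. Fat1, a giant atypical cadherin, had 237, 273 and 254 with siRNA against 159, 189 and 188 with vehicle (mean 255 ± 18 (SD, n = 3) against 179 ± 17 (SD, n = 3), log2 ratio 0.51), and its lowest siRNA value was well above its highest vehicle value. Cadm1, an immunoglobulin-type cell adhesion molecule, had 31 and 29.6 in siRNA 2 and 3 against 23.5, 22.3 and 22.9 with vehicle (log2 ratio 0.40). Lpp, a LIM protein of focal adhesions, had 70.3, 76 and 76.8 with siRNA against 56.8, 55.9 and 61 with vehicle (log2 ratio 0.36). The integrin subunits were Itga1, a collagen receptor chain at 0.33, and Itgav, a vitronectin and fibronectin receptor chain at 0.28. Itgav had 138, 142 and 146 with siRNA against 117, 113 and 121 with vehicle, with both groups tight. Pkp4, a plakophilin-like armadillo protein of junctions, had the smallest ratio among the members of the list, 0.22. Inside the focal adhesion, Tln1 encodes talin, which activates integrins, and Vcl encodes vinculin, which binds talin and actin. Tln1 had 233, 230.1 and 213 with siRNA against 187, 193 and 206 with vehicle (log2 ratio 0.21). Vcl had 211, 215 and 217 with siRNA against 183, 179 and 188 with vehicle (log2 ratio 0.23). The adhesion scaffolds Tns3 (0.41), Bcar3 (0.38), Phldb2 (0.24), Raph1 (0.22) and Nedd9 (0.21) were also members. Like most members, they had no overlapping groups.

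A list of MRTF-SRF and YAP-TEAD target genes, written from general knowledge, had 18 measured genes. Of these 10 were members, 3 were higher but set aside, 4 lay between and 1 was lower. SRF binds the CArG box. To see whether the letters of this box stand near the starts of the members, RefSeq promoter windows of build GRCm38.p6, from 250 bases before to 50 bases after a gene's start, were searched on both strands. Windows were found for 140 members, of which 7 (5%) held a CArG box, beside 2.36% of 127 lower genes and 1.81% of the 27025 genes in the table. The 7 were Dgkh, Ranbp2, Lef1, Myl9, Fhl1, Vcl and Huwe1. The stretches around the box are shown for Vcl, Myl9 and Fhl1, which encode proteins of the actin network, and for Dgkh, a diacylglycerol kinase that has the largest ratio of the 7. They are printed 5′ to 3′ on the gene's strand, with the CArG box in capitals.
Vcl: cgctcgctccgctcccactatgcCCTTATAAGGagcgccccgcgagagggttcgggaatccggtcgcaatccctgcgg
Myl9: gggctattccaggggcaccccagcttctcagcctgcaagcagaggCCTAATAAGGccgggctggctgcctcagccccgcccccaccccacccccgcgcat
Fhl1: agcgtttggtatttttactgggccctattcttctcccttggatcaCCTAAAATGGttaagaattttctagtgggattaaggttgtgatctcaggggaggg
Dgkh: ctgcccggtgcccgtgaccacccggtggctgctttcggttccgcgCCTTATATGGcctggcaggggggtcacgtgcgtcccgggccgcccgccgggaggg
The Vcl stretch is chr14:20929148-20929225 on the plus strand, with the box from 227 to 218 bases before the start. The Myl9 stretch is chr2:156775258-156775357 on the plus strand, with the box from 161 to 152 bases before the start. The Fhl1 stretch is chrX:56779536-56779635 on the plus strand, with the box from 102 to 93 bases before the start. The Dgkh stretch is chr14:78732849-78732948 on the minus strand, with the box from 174 to 165 bases before the start. A match is a run of letters and does not show binding. The shares of other motifs were as follows. The LIM homeodomain core TAATTA was in 5 members (3.57%), beside 2.36% of the lower genes and 6.12% of all. The TEAD core GGAATG was in 17.1%, beside 20.5% and 16.6%. The AP-1 site TGAGTCA was in 2.86%, beside 6.3% and 5.95%, and the cyclic AMP element TGACGTCA was in 3.57%, beside 0.787% and 2.03%. TATAAA was in 18.6%, beside 17.3% and 15.7%. The GC box GGGCGG was in 71.4% of the members, 64.6% of the lower genes and 38.2% of all genes of the table.

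Matrix genes were divided. Of 44 measured genes of an extracellular matrix list, 12 were members, 4 were higher but set aside, 7 lay between and 21 were lower, and the median over all 44 was −0.15. CCN proteins are matricellular signals that sit in the matrix and bind integrins. Of 5 measured CCN genes, 3 were members. Ctgf (CCN2), the connective tissue growth factor, had 713, 683 and 728 with siRNA against 567, 547 and 491 with vehicle (log2 ratio 0.40). Cyr61 (CCN1) had 547, 542 and 621 with siRNA against 479, 483 and 451 with vehicle (log2 ratio 0.28). Wisp1 (CCN4) had 75.2 and 77.5 in siRNA 1 and 2 against 65.6, 61.8 and 64.3 with vehicle (log2 ratio 0.26), and in none of the 3 did the groups overlap. The other CCN genes, Nov (CCN3) and Wisp2 (CCN5), were lower, with log2 ratios of −0.38 and −0.38, though the groups of Nov overlapped. These and the further paralogs of members given below were looked up after the members' values were seen. Mgp, the matrix Gla protein that inhibits calcification, had the largest ratio among the members of the list, 0.44. Its values were 1185, 1406 and 1393 with siRNA against 992, 972 and 981 with vehicle, with siRNA 1 below the other siRNA libraries and the vehicle libraries within a narrow band. Smoc1, a calcium-binding matricellular protein, had 38.6, 37.4 and 41.2 with siRNA against 29.6, 30.3 and 32.1 with vehicle (log2 ratio 0.35). Lox, the enzyme that crosslinks collagen and elastin, had 1024, 1123 and 1095 with siRNA against 860.1, 879 and 909 with vehicle (log2 ratio 0.29). Ltbp1 (0.27), which holds latent TGF-beta in the matrix, and Sdc2 (0.22), a heparan sulfate proteoglycan of the cell surface, were higher by less.

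The members included 4 components of basement membrane. Col4a5, a chain of type IV collagen, had 23.4 and 25.5 in siRNA 1 and 2 against 18.1 and 19.8 in vehicle 1 and 3 (log2 ratio 0.36). Nid2, nidogen 2, had 38.9, 41.5 and 35.4 with siRNA against 30.5, 32.3 and 33.4 with vehicle (log2 ratio 0.27). Lamb2, the laminin beta 2 chain, had 111, 124 and 116 with siRNA against 90.4, 104 and 101 with vehicle (log2 ratio 0.25). Hspg2, perlecan, had the smallest ratio among the members of the matrix list, 0.21, with 372, 407 and 389 with siRNA against 295, 359 and 356 with vehicle, and its siRNA 1 value stood only a little above vehicle 2. In Nid2, Lamb2 and Hspg2, which had all 6 values, vehicle 1 was the lowest library.

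Among extracellular proteases and inhibitors, 3 of 12 measured genes were members and 7 were lower. Pcsk6, a proprotein convertase that cleaves TGF-beta family precursors, had 87.3, 83 and 79.2 with siRNA against 58.7 and 64.8 in vehicle 1 and 3 (log2 ratio 0.43). Adamts1, a metalloprotease that cuts proteoglycans, had 38.2 and 36.6 in siRNA 1 and 3 against 26, 32.6 and 31.1 with vehicle (log2 ratio 0.32). Enzymes of sugar chains were divided as well. The members were Sulf1 (0.43), which trims sulfate from heparan sulfate, Chst15 (0.39), which adds it to chondroitin sulfate, and Cemip2 (0.31), linked to hyaluronan breakdown. Their paralogs Sulf2 (−0.32) and Chst11 (−0.29), a chondroitin sulfotransferase too, were lower. Ccdc80 (0.40), a secreted matrix-binding protein, and Tgm2 (0.24), a transglutaminase, were also in the matrix role group of 20. No member of it had overlapping groups, beside 6 of all 177 members.

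**Figure D2:**
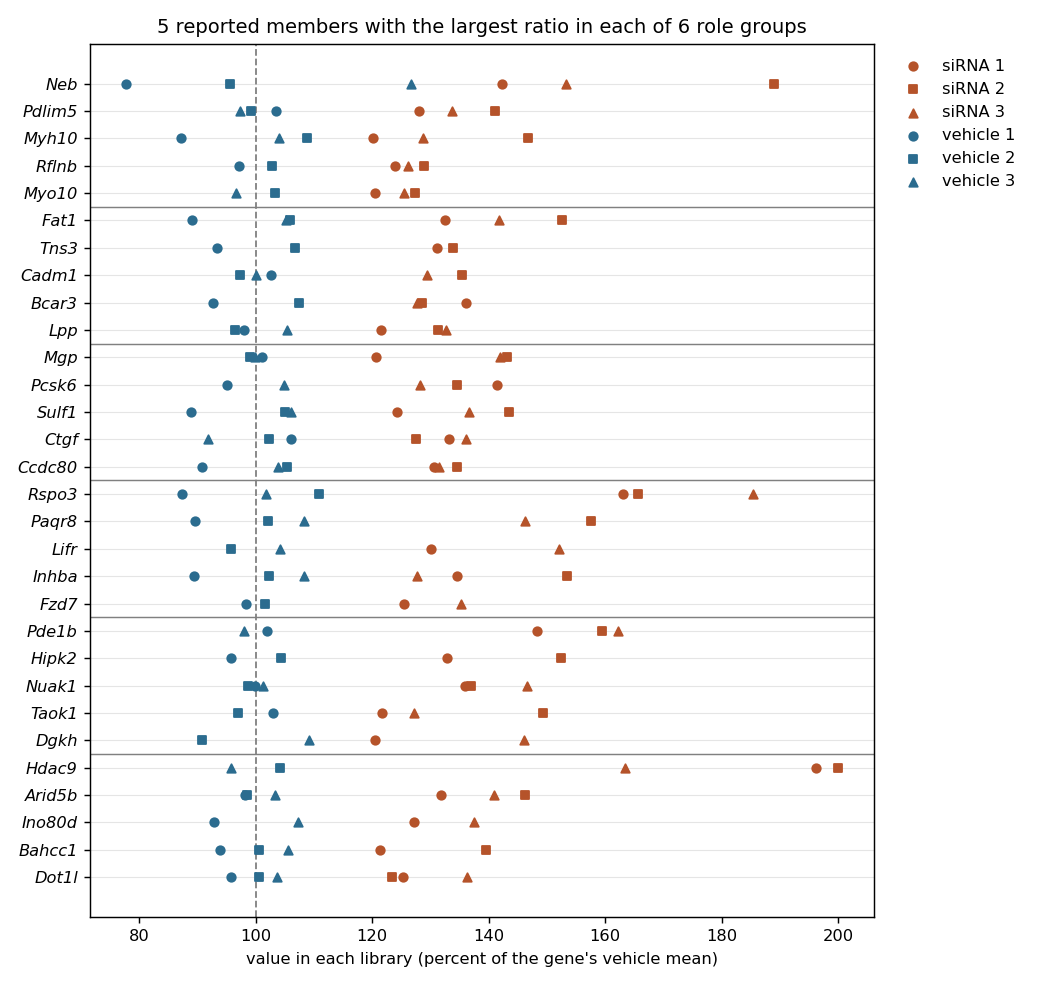
Value in each library as a percent of the gene's vehicle mean, for the 5 members with the largest ratio among those reported here in each of 6 role groups (from top: actin, adhesion, matrix, signals and receptors, kinases and second messengers, chromatin). Colour gives the group and marker shape the library number, and cells that held a date are missing. In each of the 30 rows the siRNA points lie to the right of the vehicle points.

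Wnt and Hedgehog genes also went both ways, with 4 of 7 measured genes among the members and 3 lower. The members were a ligand, receptors and a nuclear factor of the Wnt pathway. Rspo3, an R-spondin that strengthens Wnt signals by keeping Frizzled receptors at the surface, had 5.56, 5.65 and 6.32 with siRNA against 2.98, 3.78 and 3.47 with vehicle (log2 ratio 0.76), with clearly separate groups. The Frizzled receptor genes among the members were Fzd7, with 76.5 and 82.4 in siRNA 1 and 3 against 59.9 and 61.9 in vehicle 1 and 2 (log2 ratio 0.38), and Fzd5, with 17.2, 19.5 and 19.1 with siRNA against 15.4 and 15.9 in vehicle 2 and 3 (log2 ratio 0.25), while Fzd1 was lower (−0.23). Lef1, the DNA-binding partner of beta-catenin, had 25.6, 27.2 and 28.9 with siRNA against 23.3 and 20.9 in vehicle 2 and 3 (log2 ratio 0.30).

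Growth factor genes were mostly lower, 8 of 13 measured against 3 members. The members were receptors. Lifr binds leukaemia inhibitory factor and had 22.6 and 26.4 in siRNA 1 and 3 against 16.6 and 18.1 in vehicle 2 and 3 (log2 ratio 0.49). Epha2, an ephrin receptor kinase, had 41.2, 38.7 and 43.2 with siRNA against 34.2 and 33.4 in vehicle 1 and 3 (log2 ratio 0.28). Ddr1, a receptor kinase for collagen, had 95.9, 92.2 and 102 with siRNA against 84.6, 81.6 and 83.8 with vehicle (log2 ratio 0.22). In the TGF-beta list 2 of 8 measured genes were members and 3 were lower. The member Inhba encodes the activin A chain, a secreted ligand of the TGF-beta family, and had 31.3, 35.8 and 29.7 with siRNA against 20.8, 23.8 and 25.2 with vehicle (log2 ratio 0.47). Tnfrsf12a, the TWEAK receptor, had 443, 413 and 447 with siRNA against 347, 374 and 340.0 with vehicle (log2 ratio 0.29). Paqr8, a membrane progestin receptor, had 8.57 and 7.95 in siRNA 2 and 3 against 4.87, 5.55 and 5.89 with vehicle and a larger log2 ratio of 0.59. In the list of G protein-coupled receptors 3 of 7 measured genes were members, the Frizzled genes and S1pr3. S1pr3 (0.20), a sphingosine 1-phosphate receptor, Lfng (0.20), a sugar transferase that tunes Notch, Pkd1 (0.35), polycystin 1, and Ly75 (0.34), an endocytic lectin receptor, were the remaining members of this group. The paralog S1pr1 was lower (−0.82).

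Cyp26b1, the cytochrome that degrades retinoic acid, had 9.85, 9.61 and 10.7 with siRNA against 5.52, 4.52 and 5.38 with vehicle (log2 ratio 0.96), with the groups far apart. Aldh1a7, a rodent enzyme of the aldehyde dehydrogenase family that includes the makers of retinoic acid, had 14.8, 18 and 14.2 with siRNA against 7.82 and 10.5 in vehicle 1 and 2 (log2 ratio 0.77), while Aldh2, the mitochondrial aldehyde dehydrogenase, lay between at −0.12. Of the solute carriers, 2 of 10 measured genes were members and 4 were lower. Slc6a6, the taurine transporter, had 334, 344 and 386 with siRNA against 279, 267 and 289.9 with vehicle (log2 ratio 0.35), and Slc7a1, the arginine and lysine transporter, was at 0.24. Ddah1 (0.25), which degrades the nitric oxide synthase inhibitor dimethylarginine, had overlapping groups. Tfrc (0.29), the transferrin receptor that imports iron, Atp10a (0.44), a lipid flippase, Alg10b (0.20), a glycosyltransferase of the endoplasmic reticulum, Dnajc3 (0.22), a chaperone induced by unfolded proteins, and Ttc39b (0.38) were the others. The list of chaperones counted 2 members of 8 measured, but Hspg2 was counted there for its symbol alone, and Dnajc3 is the chaperone among them.

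Of the phosphodiesterases, which degrade cyclic AMP and cyclic GMP and so shorten the signal of beta-adrenergic receptors in fat cells, 3 of 4 measured were members. The exception was Pde4b, a form specific for cyclic AMP, which was lower (−0.90). Pde1b, which calcium and calmodulin activate, had 20.6, 22.2 and 22.6 with siRNA against 14.2 and 13.6 in vehicle 1 and 3 (log2 ratio 0.64). Pde2a, which cyclic GMP activates, had 68.6, 71.6 and 63.5 with siRNA against 54.6, 59.9 and 55.7 with vehicle (log2 ratio 0.26). Pde3a, a form that cyclic GMP inhibits, had 18.2, 17.5 and 19.5 with siRNA against 14.2, 12.6 and 17.8 with vehicle (log2 ratio 0.31), and its vehicle 3 value exceeded siRNA 2, so its groups overlapped. Pkia, an inhibitor peptide of protein kinase A, had 13.5 and 13.3 in siRNA 2 and 3 against 10.8 and 10.7 in vehicle 1 and 3 (log2 ratio 0.32). Rgs4, which switches off G protein alpha subunits, had 19.6, 18.3 and 18.7 with siRNA against 13.6, 14.5 and 13.6 with vehicle (log2 ratio 0.44). Rcan2 (0.37), a calcineurin regulator, was higher as well.

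Kinase and phosphatase genes counted 12 members among 19 measured (63.2%, beside 35.7% of all measured genes), with 4 lower and 3 between. The largest ratio among the members of that list was that of Map3k7cl, named for its likeness to a MAP kinase kinase kinase though its role is not assigned here, with 8.96 and 11.5 in siRNA 1 and 3 against 4.31 and 5.33 in vehicle 1 and 2 (log2 ratio 1.07). Hipk2, a nuclear kinase of stress responses, had 42.3 and 48.5 in siRNA 1 and 2 against 30.4 and 33.2 in vehicle 1 and 2 (log2 ratio 0.51). Nuak1, a kinase related to AMPK that acts on myosin phosphatase, had 76.7, 77.3 and 82.7 with siRNA against 56.4, 55.7 and 57.2 with vehicle (log2 ratio 0.48), with each group within a narrow band. Taok1, which acts upstream of p38 and Hippo kinases, had 19.4, 23.9 and 20.3 with siRNA against 16.4 and 15.5 in vehicle 1 and 2 (log2 ratio 0.41). Aak1, a kinase of clathrin coats, was the smallest of these members at 0.22 and had overlapping groups. Ptpn14 (0.34), a phosphatase that holds YAP in the cytoplasm, Ptpn11 (0.22), the phosphatase SHP2, Pdk4 (0.31), which inhibits pyruvate dehydrogenase, Cdk12 (0.29), a kinase of RNA polymerase II, Lrrk1 (0.28), Dgkh (0.40) and Smg1 (0.26) were the list's other members. Syk (0.39), a kinase of immune receptors, Lmtk2 (0.33) and Pdpk1 (0.32), which activates AKT, were members outside it, and Pdpk1 had overlapping groups.

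Small GTPases and their regulators had 5 members among 12 measured (41.7%, near the 35.7% of all measured genes), with 3 lower. Diras2, a Ras-like GTPase, had 3.65, 4.73 and 5.42 with siRNA against 2.73 and 2.68 in vehicle 2 and 3 (log2 ratio 0.74). Fgd3, an exchange factor of CDC42, had 46.9 and 53 in siRNA 1 and 3 against 33.5 and 38.2 in vehicle 1 and 2 (log2 ratio 0.48). Iqgap1, a scaffold that ties CDC42 and RAC1 to actin, had 249, 267 and 235 with siRNA against 184, 199 and 207 with vehicle (log2 ratio 0.35), and Swap70 (0.29), which works with RAC at membrane ruffles, was alike. Ralgapa1 (0.23), which turns off RAL GTPases, had equal values of 19.3 in siRNA 1 and vehicle 3.

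Chromatin genes had no lower gene. Of 16 measured, 10 were members (62.5%) and 6 lay between, with a median of 0.23 over all 16. Many genes of this list have long coding sequences. Of all 77 measured genes with a coding sequence of 5000 bases or more, 67.5% were members and 3.9% were lower. The part of length in the chromatin count was not tested. The histone deacetylases were both of class IIa, the class that shuttles between nucleus and cytoplasm and represses MEF2. Hdac9 had 5.51, 5.62 and 4.59 with siRNA against 2.93 and 2.69 in vehicle 2 and 3 (log2 ratio 0.88), and Hdac5 had 92.8, 96.8 and 92.9 with siRNA against 72.2, 78.4 and 79.6 with vehicle (log2 ratio 0.29). Arid5b, an ARID-domain cofactor that works with a histone demethylase, had 108, 119.9 and 116 with siRNA against 80.5, 80.8 and 84.7 with vehicle (log2 ratio 0.48). Methyltransferases of active genes were Dot1l, which modifies histone H3 in gene bodies, and the trithorax proteins Kmt2d and Kmt2a. Dot1l had 62.5, 61.5 and 67.9 with siRNA against 47.7, 50.2 and 51.7 with vehicle (log2 ratio 0.36). Kmt2d had 43.5, 44.2 and 47.5 with siRNA against 32.8, 34.6 and 38.3 with vehicle (log2 ratio 0.35). Kmt2a had 35.6, 40.6 and 38.2 with siRNA against 31.2 and 34.3 in vehicle 2 and 3 (log2 ratio 0.22). Ino80d, a subunit of a nucleosome remodeller, was at 0.40 and Chd1, another remodeller, was the smallest of the list's members at 0.22. Mga (0.26), Rif1 (0.24), Brwd1 (0.36), Bahcc1 (0.38), Setbp1 (0.23), the corepressor Lcor (0.30), Aebp2 (0.32), a partner of the Polycomb complex, Lbh (0.23) and Lrrfip1 (0.21) fill the role group of 17. No groups overlapped in it, as in most members.

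DNA-binding factors were divided, with 7 members, 9 lower and 4 between among 21 measured. Zfp965, a zinc finger gene, was listed at 0 in all 3 vehicle libraries and at 2.91, 1.98 and 6.73 with siRNA, so no fold is given. Irf5, an interferon regulatory factor, had 55.7 and 51.6 in siRNA 1 and 3 against 41.2, 36.9 and 38.7 with vehicle (log2 ratio 0.46), while 3 of the 7 measured interferon genes were lower. Mlxip, a glucose-sensing partner of MLX, had 45.1 and 47.7 in siRNA 1 and 2 against 32.5 and 37.2 in vehicle 1 and 2 (log2 ratio 0.41). Hivep3, a large zinc finger protein, had 24.9 and 28.8 in siRNA 2 and 3 against 21 and 20.2 in vehicle 2 and 3 (log2 ratio 0.38). Foxc2, a forkhead factor known for promoting brown-type features in mouse fat, had 72.3, 67.2 and 80.9 with siRNA against 65.3, 58.5 and 57.9 with vehicle (log2 ratio 0.28). Its lowest siRNA value stood close to its highest vehicle value. Npas4, a factor induced by calcium in neurons, had 18.9 and 22.7 in siRNA 1 and 2 against 14.6, 12.8 and 14.4 with vehicle (log2 ratio 0.58). Zhx3 (0.30), Zfhx4 (0.28), Usf3 (0.39) and Dmrt2 (0.30) were the remaining members. Growth arrest genes slow the cell cycle. Gadd45b, with 48.9, 46.5 and 42.5 with siRNA against 31.6 and 36.6 in vehicle 1 and 2 (log2 ratio 0.43), Gadd45g (0.28) and Btg1 (0.24) were members, while Gadd45a was lower (−0.32). The cell cycle list had 3 members of 8 measured (Gadd45b, Gadd45g and Rif1), or 37.5%, near the 35.7% of all measured genes.

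Genes of RNA control counted 5 members of 9 measured, with 1 lower. They belong to small RNA silencing and to decay of faulty messages. Ago2, the slicer that holds guide strands of microRNAs and siRNAs, had 41.6 and 45.5 in siRNA 1 and 2 against 34.4, 33.8 and 34.9 with vehicle (log2 ratio 0.34). Dicer1, which cuts their precursors, had 13.9 and 15.4 in siRNA 1 and 2 against 11.7 and 12.5 in vehicle 1 and 2 (log2 ratio 0.27). Ddx6, a helicase of P-bodies, had 98.9 and 97 in siRNA 2 and 3 against 75.3 and 75.9 in vehicle 1 and 2 (log2 ratio 0.37). Smg1, the kinase that starts nonsense-mediated decay, and Smg5, which acts after it, were at 0.26 and 0.25. Samd4 (0.27) is a translational repressor. A second set makes ribosomes in the nucleolus. Mdn1, the giant ATPase that strips assembly factors from the large subunit, had 8.55, 9.72 and 8.97 with siRNA against 5.87 and 6.92 in vehicle 1 and 2 (log2 ratio 0.50), and Utp20 (0.37), Heatr1 (0.28) and Pdcd11 (0.27) serve in the processing of ribosomal RNA. Ranbp2 (0.36) and Ahctf1 (0.21) belong to the nuclear pore, and Xpo4 (0.28) is an export receptor.

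The list of the ubiquitin system and protein turnover had 8 members of 16 measured, with 3 lower. The 8 include Wdfy3, a protein of autophagy that is given below with membrane traffic. Trim56, a ubiquitin ligase of antiviral signalling, had 15.7 and 16.2 in siRNA 1 and 2 against 8.56, 11.5 and 14.2 with vehicle (log2 ratio 0.48), and its vehicle values were spread widely, with vehicle 3 near the siRNA level. Herc2 (0.34), Hectd4 (0.25) and Huwe1 (0.21) are giant ligases of the HECT family. Herc2 had 16.7, 17.2 and 14.8 with siRNA against 11.6 and 14 in vehicle 1 and 2. Fbxo30 (0.29) is a substrate receptor of a cullin ligase, Trim47 (0.21) is another ligase, and Usp24, a deubiquitinase, was the smallest at 0.20. Anapc1 (0.25), the largest subunit of the anaphase-promoting complex, was a member outside the list.

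Membrane traffic and motor genes had 8 members of 10 measured and 1 lower. Mtus2, a protein of microtubule tips, had 13.8 and 10.8 in siRNA 1 and 3 against 6.61 and 7.54 in vehicle 1 and 3 (log2 ratio 0.79). The BEACH-domain proteins, giants of lysosome and autophagy traffic, were Lyst (0.36), Wdfy3 (0.27) and Nbeal1 (0.26). Lyst had 9.91 and 10.9 in siRNA 1 and 3 against 7.41 and 8.71 in vehicle 1 and 3. Vps13a (0.32), a lipid transfer protein at membrane contacts, had 9.55 and 8.41 in siRNA 1 and 3 against 6.95 and 7.45 in vehicle 2 and 3. Htt, huntingtin, had 32.3 and 30.6 in siRNA 1 and 2 against 24.3, 26.5 and 27.4 with vehicle (log2 ratio 0.27). Map1b (0.23) binds microtubules, Kifc3 (0.21) is a minus-end motor, and Myof, myoferlin, which serves membrane repair, was the smallest at 0.21. Ehbp1l1 (0.34), Dzip1l (0.33), Erc1 (0.25), Trip11 (0.23), a golgin, Cep350 (0.27), a centrosome protein, Dpysl3 (0.27) and Lnpep (0.31), the aminopeptidase that travels with the glucose transporter of fat and muscle, were in the same role group. Like most members, they had no overlapping groups.

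For 10 members no role was assigned. Gprin3 had 3.51 and 2.91 in siRNA 1 and 3 against 1.55 and 1.63 in vehicle 1 and 2 (log2 ratio 0.97) and Fam124a had 4.86, 4.95 and 3.93 with siRNA against 2.64 and 2.46 in vehicle 1 and 3 (log2 ratio 0.82), both with separate groups. Glipr1 (0.54), 9930111J21Rik1 (0.48), Tmem245 (0.33), D5Ertd579e (0.30), Mustn1 (0.30), Fryl (0.26) and Tulp4 (0.26) follow, and Map3k7cl was given above. In all, 107 members were in at least 1 of the 33 gene lists and 70 in none. No member was in the count list, so no member could be looked at in counts.

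What many members shared, and the rule did not use, was a long coding sequence. Coding lengths, the longest protein-coding transcript of each gene in GENCODE vM21, were found for all 177 members. Their median was 2931 bases, beside 1377 for 176 lower genes, 1630 for 124 genes between, 1746 for all measured genes with a length and 1173 for the 21877 protein-coding genes of the annotation. Coding sequences of 5000 bases or more made up 29.4% of the members (52 genes), 1.7% of the lower genes (3), 15.3% of the genes between, 15.6% of all measured genes of the list and 3.41% of the annotation. Neb was the longest at 21456 bases, followed by Mdn1 at 16767, Kmt2d at 16764, Herc2 at 14508 and Fat1 at 13935. The share of members went up with each bin of length, from 19.3% of 114 genes under 1000 bases through 25.2%, 36% and 52.9% to 67.5% of 77 genes at 5000 bases or more, while the share of lower genes went from 51.8% to 3.9%. Across the 493 measured genes with a length, Spearman's rho between length and log2 ratio was 0.35, and among the members it was −0.18. These are values across genes of the same 6 libraries, and genes are not independent replicates.

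**Figure D3:**
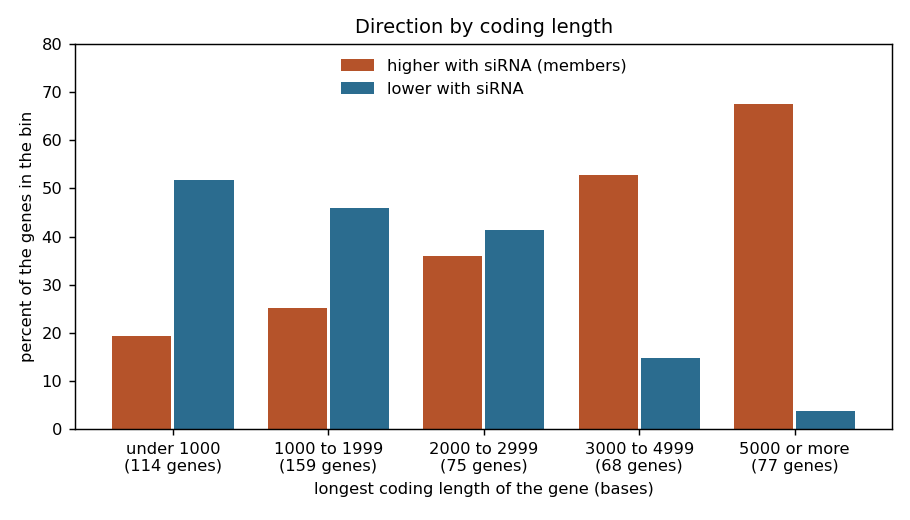
Percent of the genes in each bin of coding length (bases) that were members, higher with siRNA by the rule (orange), or lower by at least 0.2 (blue), with the number of measured genes under each bin. The orange bars go from 19.3% to 67.5% and the blue bars from 51.8% to 3.9%.

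Length moved with the differences between replicate libraries as well. For 270 genes with 6 values above 0, each library's log2 value was set against the mean of the other 2 libraries of its own group. Over genes, Spearman's rho of this deviation with coding length was −0.40 in vehicle 1, 0.07 in vehicle 2 and 0.41 in vehicle 3, and −0.10, 0.22 and −0.16 in siRNA 1, 2 and 3. Deviations within a group of 3 depend on each other, so the vehicle values are not separate observations. For the 29 genes of 5000 bases or more the median deviation was −0.13 in vehicle 1 and 0.12 in vehicle 3, and for the 72 genes under 1000 bases it was −0.01 in vehicle 1 and 0.01 in vehicle 3. Beside this, the median log2 ratio of siRNA over vehicle for all 77 genes of 5000 bases or more was 0.25. Without vehicle 1 the rule gave 165 members with a median coding length of 2751 bases, and without vehicle 3 it gave 194 with 3069. The part of length, of RNA quality or of library preparation in the higher values of the members was not tested.

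**Figure D4:**
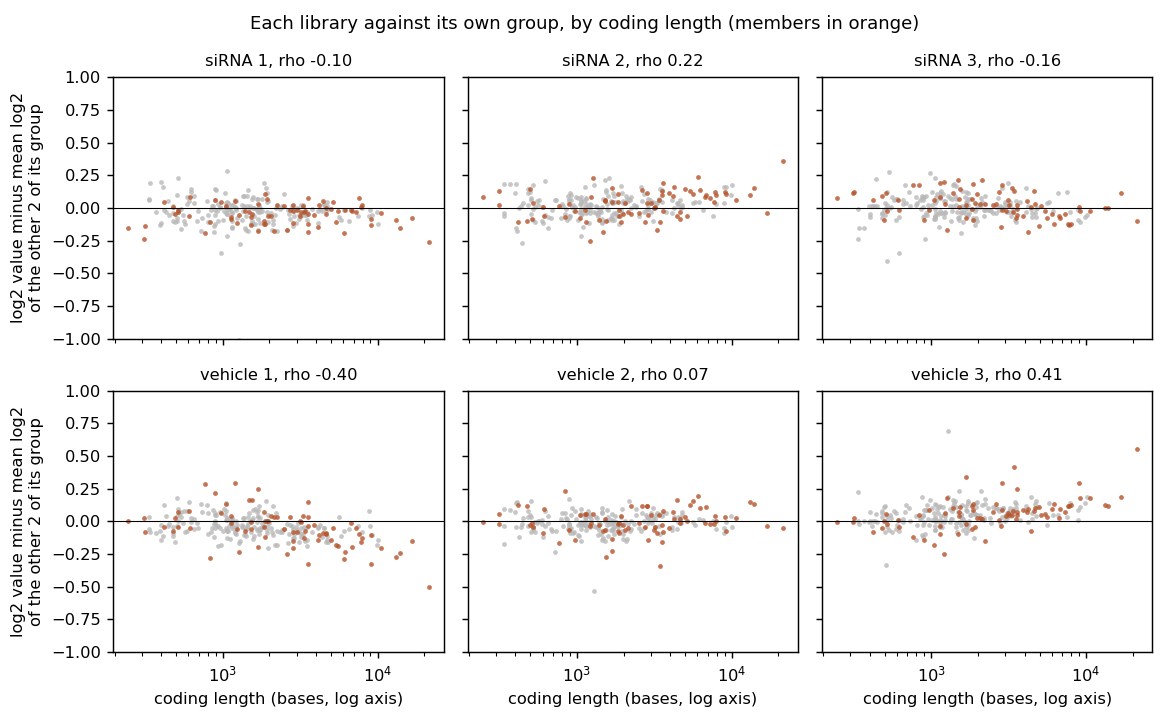
Log2 value of each library minus the mean log2 value of the other 2 libraries of its group, against coding length (bases, log axis), for 270 genes with 6 values, members in orange and other genes in grey. The panels of vehicle 1 and vehicle 3 slope in opposite directions (rho −0.40 and 0.41), and 2 points lie outside the drawn range.

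Spread between replicates was small, and somewhat larger for members than for all genes of the list. The median coefficient of variation of members with 3 values was 5.21% with siRNA and 5.14% with vehicle. It was 4.41% and 4.27% for all genes with 3 values, members included. For lower genes it was 5.01% and 4.81%. Cells left out for their date format could lower or raise a mean, and 129 of the 1062 cells of the members were such cells.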

How the data were processed

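Poly(A) RNA of 3 siRNA and 3 vehicle libraries was sequenced on a DNA nanoball platform. The study's methods and the submitters' notes name HISAT, Bowtie2, RSEM and DESeq2, with no versions. The sources used here give neither genome build nor strandedness. The authors deposited a table of 834 genes, whose first 232 repeat a list of estimated counts. The remaining 602 genes were deposited under a heading of read counts, but 0.92% of the plain values are whole, so they were treated as a score of unknown scale. Library depth is therefore unknown. For the count list the authors also deposited group means, log2 ratios and p-values, which were not used. Its estimated counts were read only to find which library was highest.

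A spreadsheet had turned some cells into dates. Of 3612 cells, 3042 were plain numbers and 570 were in date format. Of the latter, 528 held a serial number, 526 of them equal within 0.01 to the mean of the other values of the group, and 42 were calendar dates. None was used. Under 100, decimals from 01 to 12 and single decimals were found in 0.213% of plain values, beside 20.8% from 100 upward. Loss of a cell thus followed its decimals.

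The log2 ratio was taken between group means after adding 0.1, as the values were not counts, and no test was run. Samples were grouped by their titles. The members, the gene lists and the naming rule were chosen with earlier results of these data known. Named were the 15 members with the largest ratio, the 5 with the smallest and, in each list with at least 3 members, the 4 largest and the smallest. Other members were named for their family after their values were seen. Some members are counted but not reported here by name. Coding lengths came from GENCODE vM21 and promoters from RefSeq (GRCm38.p6), matched by symbol or synonym. They replace the protein lengths planned at first. Alternatives were other pseudocounts, thresholds, filters, a common scaling, medians and leaving out each library. Python 3.11.15, numpy 2.4.6, scipy 1.17.1 and matplotlib 3.10.9 were used. The member rule was run on made-up rows without replicate spread. That run checks the code and not how the rule behaves on data with such spread.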

Additional observations from a re-analysis of the deposited data

How the results depend on the processing

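The rule gave 92 members at a threshold of 0.3, 227 at 0.1 and 78 when all 6 cells had to be plain numbers, of which 75 had groups that did not overlap. Scaling the libraries to a common median, with factors from 0.971 to 1.04, gave 225 members, among them all 177, and raised the median log2 ratio from 0.30 to 0.39. Reading date cells as numbers gave 219, among them all 177. Of 528 serial numbers 526 equalled the mean of the other values of the group. This setting could therefore hardly change a member's ratio. Leaving out each library in turn gave from 160 (without siRNA 2) to 194 members (without vehicle 3), a median log2 ratio from 0.28 to 0.34 and from 171 to 176 members without overlap. In the cell cycle list the 3 members became 5 under the scaling and 5 without vehicle 3. Of 160 alternative values, 155 stayed within the limits set for them, 5 moved and 0 reversed. The limits were a fixed fold range for counts and lengths, and a replicate spread of 0.102 for the median log2 ratio. Only that median could be labelled reversed, and the members had been chosen for a higher ratio. The number without overlap could not change with the pseudocount or fall when a library was left out. The tally is therefore a description and not a test of the members. The median coding length of the members, 2931 bases, was recomputed under the same settings, a choice made after seeing the data, and ranged from 2625 to 3069 bases. No paired analysis was possible because no result came from a test, so there was no fit that could take a replicate block. The unknown scale and the replaced cells limit every ratio, and ratios of low-valued genes depend on the pseudocount.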
